A study of Mus musculus with 19 samples.

Results

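Poly(A) polymerases, poly(A)-binding proteins and a group of deadenylases decide how long the poly(A) tail of an mRNA is and which proteins sit on it. The RNA of 10 such genes, of 25891 listed in the deposited table, was followed in mouse MII oocytes (ovulated oocytes that rest in metaphase II until they are fertilized) and 2cell embryos. The members were chosen by name and are Papola, Papolg, Pabpn1, Pabpn1l, Pabpc1, Pabpc1l, Pabpc4, Parn, Pan2 and Pan3. All 10 were found under these symbols, and all 10 passed the filter on low values in each comparison (0.1 FPKM or more in 5 MII or 4 2cell libraries, where FPKM are fragments per kilobase and per 1 M fragments).

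The series compares the genotypes labelled Het and KO, written here as CPEB3+/- and CPEB3-/-, in 19 libraries: 5 CPEB3+/- and 5 CPEB3-/- libraries of MII oocytes and 5 CPEB3+/- and 4 CPEB3-/- libraries of 2cell embryos. All were from BL6 females of 6 to 10 weeks that had been given 5 IU of PMSG and, 48 h later, 5 IU of hCG, and the 2cell embryos came from zygotes cultured in vitro and were taken 37 h after hCG. Per the study's methods, Cpeb3 was deleted with a Cre driven by the ZP3 promoter, which is active in growing oocytes, and a library was made from 5 cells. Elsewhere the study states that some CPEB3 protein remained in these oocytes and that the knockout females were mated with wild-type males. In the methods the knockout is CPEB3 LoxP/LoxP;ZP3-Cre+/-, and the control genotypes named there include CPEB3 LoxP/-;ZP3-Cre+/-, which carries the Cre too, but the labels do not say which alleles Het stands for. Nothing ties the replicate letters to animals, so p-values measure the spread between these libraries, which may be partly technical.

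Tail length is central in these cells because a mature oocyte does not transcribe and works from stored mRNA. In the nucleus, poly(A) polymerases add the tail and PABPN1 coats it. In the cytoplasm PABPC proteins take over, protect the tail and join it to translation initiation factors, while PAN2-PAN3, PARN and the CCR4-NOT complex shorten it. CPEB proteins bind the cytoplasmic polyadenylation element (CPE) in the 3′UTR and steer the lengthening of tails during meiosis. Germ cells and early embryos hold forms of their own of both binding proteins: PABPC1L (also called embryonic PABP), which is required for oocyte maturation, and PABPN1L, which takes part in the clearance of maternal mRNA after meiosis.

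Cpeb3 itself was listed at 0.0700, 0.0987, 0.0450, 0.0627 and 0.101 FPKM in the CPEB3+/- MII libraries and at 0.215, 0.141, 0.164, 0.131 and 0.157 FPKM in the CPEB3-/- MII libraries. Every library labelled CPEB3-/- was thus the higher, with p = 0.00794 in a two-sided exact permutation test, the smallest these libraries allow. In 2cell embryos the 5 CPEB3+/- libraries held 0.0303 ± 0.0149 FPKM (SD) and the 4 CPEB3-/- libraries 0.0554 ± 0.0129 FPKM, with overlap and an exact permutation p of 0.0476. Deleted and remaining exons are summed in 1 value per gene, so CPEB3-/- and CPEB3+/- stand below for the libraries labelled so. The study reports that in knockout oocytes Cpeb3 mRNA was absent by PCR and CPEB3 protein was reduced. Whether labels of these libraries were exchanged was not tested.

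Depth, estimated from the steps between low values, was 17.1 to 23.4 M fragments per library (M, mega), and a difference between the genotypes was not detectable (exact permutation p = 0.730 for MII and 0.603 for 2cell libraries). The share of fragments that fell in listed genes was lower in CPEB3-/- libraries, at 55.9 to 60.5% against 60.0 to 62.0% in MII oocytes and 44.7 to 48.4% against 49.3 to 53.3% in 2cell embryos (exact permutation p = 0.0159 in each stage), and its part in the results was not tested. Marker genes were read to check the labelled stages. The summed level of 10 oocyte genes was 901 to 1260 FPKM in MII and 104 to 163 FPKM in 2cell libraries, and that of the 9 measured of 10 genes of the 2cell stage was 38.2 to 61.6 and 558 to 951 FPKM. One of the latter, Zscan4d, was at 1.15 ± 0.294 FPKM (SD) in the 5 CPEB3+/- and at 9.88 ± 2.81 FPKM in the 5 CPEB3-/- MII libraries. By the limma test described below, 2 of the 6 tested genes of this list were called higher in CPEB3-/- MII oocytes and 0 lower. In CPEB3-/- 2cell embryos 1 of 9 was called lower and 0 higher. Of all tested genes 12.8% and 18.3% were called in the 2 stages. Of 13 cumulus and granulosa cell genes, 9 were listed, at a sum of 0.297 to 0.547 FPKM in MII and 0.723 to 1.30 FPKM in 2cell libraries. A mean of 0.1 FPKM or more was reached by 1 of them in each MII group. In CPEB3+/- and CPEB3-/- 2cell embryos 3 and 2 reached it. The FPKM are divided by gene length with introns, as described below, so low sums do not show that such cells were absent. The blood list was represented by Hba-a1 and Hba-a2 alone, at up to 0.428 FPKM in sum in MII and at 46.2 to 146.3 FPKM in 2cell libraries of both genotypes, and the sperm list by Prm2 and Tnp1, at up to 1.26 FPKM.

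CPEs were searched in the 3′UTR, the sequence after the stop codon, on the transcribed strand, as TTTTAT or TTTTAAT. For each gene the longest 3′UTR annotated among its coding transcripts with a known 3′ end was used (GENCODE vM21, GRCm38). The hexamers AATAAA and ATTAAA, which direct cleavage and polyadenylation, were searched the same way, and AATAAA can share its first bases with the end of TTTTAAT. A CPE lay in the last 100 bases of the 3′UTR in Pan2 (3 matches), Pan3 (1) and Pabpc4 (1), and in 18.5% of 16269 genes. Anywhere in the 3′UTR it was found in 6 of 10 members, with 7 matches in Papola, 5 in Pan3, 3 in Pan2, 2 in Papolg and 1 each in Pabpc1 and Pabpc4, and in 61.1% of all genes. No match was found in Pabpc1l, Pabpn1, Pabpn1l and Parn. The following sites are those of the members with a CPE in the last 100 bases (Pan2, Pan3 and Pabpc4) and of the binding proteins whose forms are compared further on (Pabpc1 and Pabpc1l, Pabpn1 and Pabpn1l), 5′ to 3′ in the sense of the mRNA, with every CPE and hexamer that falls in the window in capitals.
Pan2, hexamer and CPEs near the end of the 3′UTR, chr10:128321313-128321342, plus strand: catgTTTTATaaAATAAAagtatTTTTATc
Pan3, CPE and hexamer near the end of the 3′UTR, chr5:147548460-147548489, plus strand: atagcagtattTTTTAATAAAgaattgcag
Pabpc4, CPE near the end of the 3′UTR, chr4:123298832-123298861, plus strand: atttgatgccagTTTTATgttacaatcttg
Pabpc1, its only CPE, chr15:36595837-36595866, minus strand: aacaaattaatgTTTTATagaccctgggaa
Pabpc1, hexamer near the end of the 3′UTR, chr15:36595664-36595693, minus strand: aattcttgctttAATAAAaattccttaaac
Pabpc1l, hexamer near the end of the 3′UTR, chr2:164050505-164050534, plus strand: tttgctttatatATTAAAaaatgctgcaaa
Pabpn1, hexamer near the end of the 3′UTR, chr14:54898105-54898134, plus strand: aaaaaaaaaagaATTAAAaaaaaaaaagaa
Pabpn1l, hexamer near the end of the 3′UTR, chr8:122619473-122619502, minus strand: agaatgtaaattATTAAActtgaatatatt
In Pan2 a CPE stood on each side of the hexamer, 12 bases of the 3′UTR following the last of them. In Pan3 the CPE ran into a hexamer. The CPE of Pabpc4 ended 76 bases and that of Pabpc1 188 bases before the annotated end. A match of these letters describes the sequence and does not show binding.

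The deposited FPKM are divided by the length of the gene from start to stop, introns included, and therefore cannot be compared between genes. For levels between genes they were rescaled to fragments per kilobase of the longest coding transcript and 1 M fragments. On that scale Pabpn1l was the highest member in CPEB3+/- MII oocytes, at 44.8 ± 8.38 (SD, n = 5), above and without overlap with Pabpn1 at 25.4 ± 8.82. Papolg (14.3 ± 3.69), Papola (10.1 ± 1.85), Pan2 (8.56 ± 0.891), Pabpc4 (7.71 ± 2.13), Parn (5.85 ± 0.702), Pabpc1l (4.29 ± 1.18) and Pan3 (3.64 ± 0.503) followed, each overlapping its neighbour. Pabpc1 was the lowest at 1.32 ± 0.245, below all libraries of Pan3. The order in CPEB3-/- MII oocytes began with Pabpn1 (46.1 ± 13.7) and Pabpn1l (38.4 ± 5.99), which overlapped, and ended again with Pabpc1 (0.578 ± 0.144), apart from the rest.

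In 2cell embryos the order was another one. Pabpn1 led in CPEB3+/- embryos at 209.6 ± 43.6 (SD, n = 5) and in CPEB3-/- embryos at 122 ± 12.6 (SD, n = 4), and Pabpc1 came next at 24.8 ± 7.86 and 23.9 ± 4.60. Both were apart from each other and from all members below them. Papola, Pan2, Pan3, Pabpc4 and Parn lay between 4.07 and 6.27 in the means of CPEB3+/- embryos, each overlapping its neighbour. The lowest were Papolg (1.41 ± 0.584), Pabpc1l (1.23 ± 0.246) and Pabpn1l (1.12 ± 0.662), which overlapped each other in that order. In CPEB3-/- embryos all members below Pabpc1 overlapped their neighbours, from Pan2 (9.83 ± 1.99) to Papolg (0.759 ± 0.365).

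**Figure D1:**
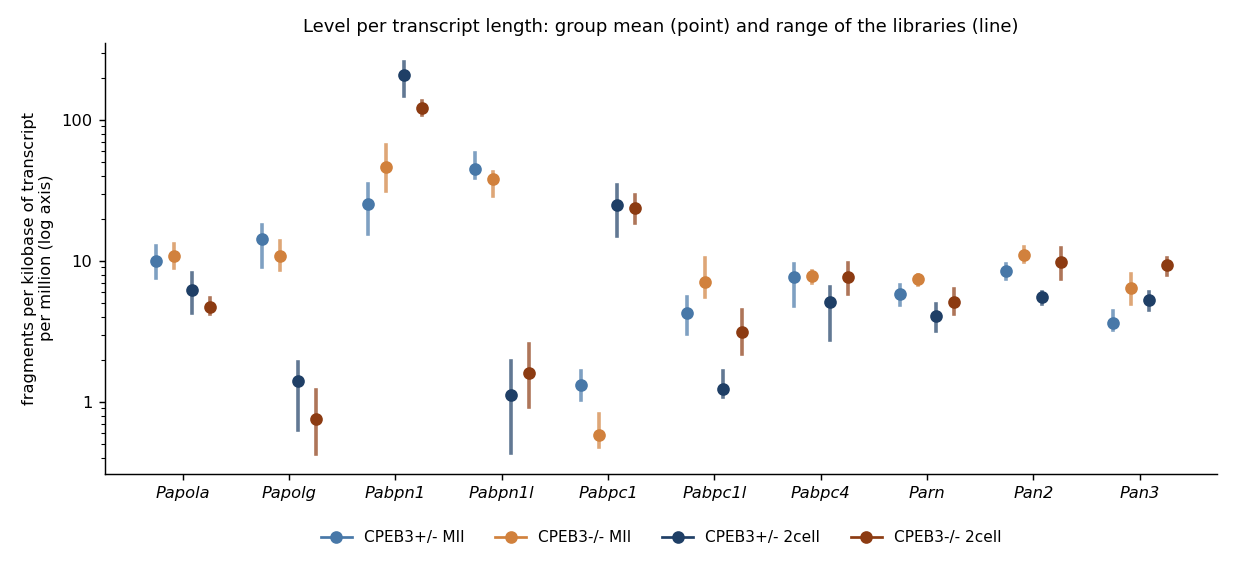
Level of each member in fragments per kilobase of transcript and 1 M fragments (log axis), with the group mean as a point and the range of the libraries as a line, for CPEB3+/- and CPEB3-/- MII oocytes (n = 5 each) and 2cell embryos (n = 5 and 4). Pabpn1l stands at 44.8 and 38.4 in MII oocytes and at 1.12 and 1.61 in 2cell embryos, while Pabpc1 moves from 1.32 and 0.578 to 24.8 and 23.9.

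To compare the groups, log2(FPKM + 0.1) was fitted with limma across all genes that passed the filter, after scaling by trimmed means of log ratios. A gene was called when its Benjamini-Hochberg adjusted p was under 0.05 and its difference was more than 1.5-fold. Since 0.1 FPKM corresponds to 6.4 fragments of Pabpn1l but to 255.0 fragments of Parn at the median depth, folds of long genes are shrunk on this scale, and a second fit on log2(fragments per 1 M + 0.5), chosen after the data were seen, is given where it changes a call. Values are shares of the sequenced RNA of pooled cells, so absolute amounts per cell cannot be read from them, and fewer cells with the RNA and less of it in each cell cannot be told apart. The kit primes on poly(A), so the amount of an mRNA and the length of its tail cannot be told apart either.

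Between the genotypes in MII oocytes, 2 of 10 members were called, Pabpc1 lower and Pabpn1 higher in CPEB3-/-. Among 10515 tested genes 12.8% were called, 5.13% higher and 7.64% lower. In the FPKM as deposited, 5 of 10 members had no overlap between the genotypes, against 16.3% of the tested genes: Pabpc1 was lower in every CPEB3-/- library, and Pabpc1l, Parn, Pan2 and Pan3 were higher. The median log2 fold change of the members was 0.06 and that of all tested genes -0.01. Higher calls made up 40.2% of all calls here, 57.1% in the values as deposited and 69.9% with each library scaled to its sum, which moved the median of all tested genes to 0.15.

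In 2cell embryos 3 of 10 members were called, Pabpn1 lower and Pabpc1l and Pan2 higher in CPEB3-/-. Calls made up 18.3% of the 14051 tested genes, 7.78% being higher and 10.5% lower. Here 4 of 10 members did not overlap in the FPKM as deposited, against 20.0% of the tested genes, with Pabpn1 lower and Pabpc1l, Pan2 and Pan3 higher. The median was 0.27 for the members and -0.04 for all tested genes.

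**Figure D2:**
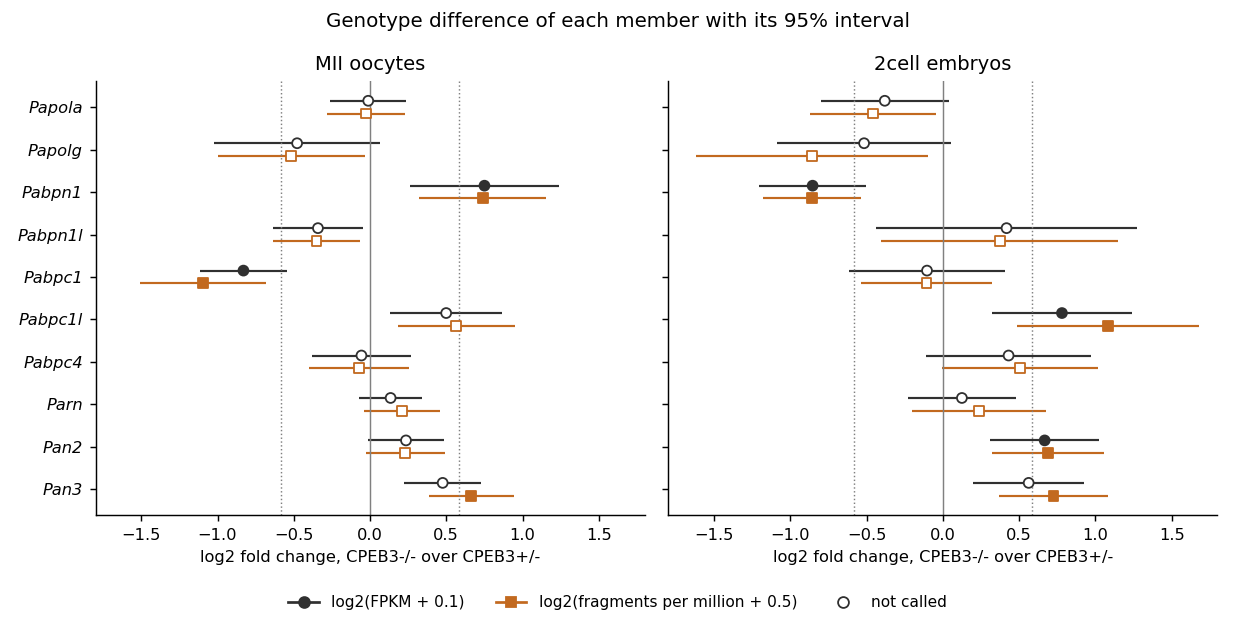
Log2 fold change of each member, CPEB3-/- over CPEB3+/-, with its 95% confidence interval from limma, in MII oocytes (n = 5 and 5) and 2cell embryos (n = 4 and 5), on the log2(FPKM + 0.1) scale (circles) and on the log2(fragments per 1 M + 0.5) scale (squares). Filled symbols were called and dotted lines mark 1.5-fold. Pabpn1 lies at 0.75 in MII oocytes and at -0.85 in 2cell embryos, and Pan3 is called in both stages on the second scale alone.

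The poly(A) polymerases did not pass the test between the genotypes in either stage, on the FPKM scale or in fragments per 1 M. Papola, the canonical nuclear poly(A) polymerase, was listed at 0.812 ± 0.149 FPKM (SD) in the 5 CPEB3+/- and at 0.873 ± 0.144 FPKM in the 5 CPEB3-/- MII libraries, and its log2 fold change of -0.01 had a 95% interval of -0.26 to 0.24. In 2cell embryos it had 0.507 ± 0.124 and 0.383 ± 0.0478 FPKM (log2 fold change -0.38, interval -0.80 to 0.04). In fragments per 1 M the interval of Papola was -0.28 to 0.23 for oocytes. For embryos that scale gave -0.46, with an interval of -0.87 to -0.05 that left out 0 (adjusted p = 0.0986 by limma). With the GC trend removed the embryo value was -0.15. Papolg, a second nuclear enzyme of the same family, was listed at 1.84, 1.04, 2.09, 1.86 and 1.37 FPKM in CPEB3+/- MII oocytes and at 0.994, 1.03, 1.02, 1.58 and 1.59 FPKM in CPEB3-/- MII oocytes. The libraries overlapped, and the log2 fold change of -0.48 had an interval of -1.02 to 0.07. In 2cell embryos Papolg rested on 31 to 140 fragments per library, and its log2 fold change of -0.52 had an interval of -1.09 to 0.05.

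Pabpn1, the nuclear poly(A)-binding protein that stimulates the polymerase and limits tail length, moved in opposite directions in the 2 stages. In CPEB3+/- MII oocytes it was listed at 7.26, 10.9, 4.83, 6.06 and 10.7 FPKM and in CPEB3-/- MII oocytes at 20.8, 15.7, 14.5, 9.87 and 11.2 FPKM. The CPEB3-/- libraries were the higher ones, and D, at 9.87, lay below B and E of CPEB3+/-. In limma the log2 fold change reached 0.75 (standard error, SE, of 0.222, adjusted p = 0.0373). On this scale the call was lost, with adjusted p of 0.0744 to 0.0875, without CPEB3+/- replicate A, C or D or without CPEB3-/- replicate A, B or C. In fragments per 1 M it was kept without any 1 of the 10 libraries, at 0.62 to 0.86. On the FPKM scale it was also lost with each library's trend on GC content removed, at a log2 fold change of 0.53, and with no filter on low values (adjusted p = 0.0778).

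In CPEB3+/- 2cell embryos Pabpn1 had 46.7, 58.7, 65.6, 76.6 and 80.4 FPKM and in CPEB3-/- embryos 42.5, 40.3, 34.0 and 35.6 FPKM. Every CPEB3-/- library lay below every CPEB3+/- library. This gave a log2 fold change of -0.85 (SE 0.158, adjusted p = 0.00673). Under scaling to equal sums of FPKM it came to -0.47 and was not called, a scaling under which the median of all tested genes moved to 0.26 and the share of higher calls among all calls from 42.5% to 80.9%. Quantile normalization gave -0.56, just under 1.5-fold, and ended the call too. The difference of the genotype effects between the stages was -1.64 (SE 0.301, adjusted p = 0.00291, interaction in 1 limma fit of 19 libraries), and of 15786 genes 8.11% were called in this test, 2.97% higher and 5.14% lower. Of these calls 36.6% were higher, and 65.8% with sum scaling. Pabpn1 was the one member called in it.

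A transcript annotated as Gm20521 runs through Pabpn1 on the same strand. It was listed with at most 9 fragments in MII and 53 in 2cell libraries, where Pabpn1 had 642 to 2668 and 3331 to 9129. How fragments of their shared sequence were assigned is not given in the sources used here, so these numbers do not separate the 2.

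Pabpn1l, the form of this protein in oocytes and early embryos, was listed at 13.9, 16.9, 13.7, 13.9 and 20.5 FPKM in CPEB3+/- and at 12.6, 14.8, 14.8, 10.1 and 15.0 FPKM in CPEB3-/- MII oocytes. The genotypes overlapped, and the log2 fold change was -0.34 (95% interval -0.64 to -0.05, adjusted p = 0.0922), so it did not pass the test. In 2cell embryos 10 to 54 fragments per library were left, and the log2 fold change of 0.42 had an interval of -0.44 to 1.27. The gene Gm20388 spans Pabpn1l on the opposite strand, and the kit does not mark strand. Gm20388 was listed with at most 76 fragments in MII and 21 in 2cell libraries.

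Pabpc1, the general cytoplasmic poly(A)-binding protein, was listed at 0.206, 0.287, 0.259, 0.335 and 0.236 FPKM in CPEB3+/- MII oocytes and at 0.122, 0.0977, 0.165, 0.0961 and 0.101 FPKM in CPEB3-/- MII oocytes. No CPEB3-/- library reached a CPEB3+/- one, and the mean was 2.28-fold lower. These levels rest on 58 to 96 and on 27 to 49 fragments per library. Its log2 fold change was -0.83 (SE 0.129, adjusted p = 0.00220 by limma) and -1.10 in fragments per 1 M, and the call was kept without any 1 of the 10 libraries. A pseudocount of 1 FPKM, well above these levels, shrank it to -0.20 and ended the call. In 2cell embryos Pabpc1 had 3.02, 3.94, 6.14, 6.91 and 4.94 FPKM in CPEB3+/- and 5.10, 4.50, 3.71 and 5.90 FPKM in CPEB3-/-. Here the CPEB3-/- libraries lay within the range of the CPEB3+/- ones, and the log2 fold change of -0.10 had an interval of -0.62 to 0.41.

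The difference between the stages in this genotype effect was 0.71 for Pabpc1 (adjusted p = 0.125) and 0.97 in fragments per 1 M, where it was called (adjusted p = 0.0330), as it was with sum scaling (1.03) and quantile normalization (0.85). In fragments per 1 M the call was lost in 10 of 19 cases with 1 library left out, at adjusted p of 0.0509 to 0.0743. Pabpc1 has retrocopies in the mouse genome, and how reads that map to several places were counted is not given in the sources used here.

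Pabpc1l, its relative in oocytes and early embryos, was higher in CPEB3-/- in both stages. It was listed at 0.285, 0.523, 0.291, 0.426 and 0.489 FPKM in CPEB3+/- and at 0.986, 0.551, 0.570, 0.682 and 0.524 FPKM in CPEB3-/- MII oocytes. The lowest CPEB3-/- library lay just above the highest CPEB3+/- one. The log2 fold change of 0.50 (95% interval 0.13 to 0.86) had an adjusted p of 0.0544 and was not called, while with sum scaling it was (0.66, adjusted p = 0.0365). In fragments per 1 M it was 0.57 (adjusted p = 0.0309), under 1.5-fold, and was called in 5 of 10 cases with 1 library left out. In 2cell embryos the values were 0.102, 0.105, 0.156, 0.111 and 0.102 FPKM in CPEB3+/- and 0.332, 0.422, 0.207 and 0.213 FPKM in CPEB3-/-.

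All CPEB3-/- embryo libraries lay above all CPEB3+/- ones, at a mean 2.54-fold higher, and from 90 to 195 against 47 to 67 fragments per library. The log2 fold change of Pabpc1l in 2cell embryos was 0.78 (SE 0.206, adjusted p = 0.0266) and 1.08 in fragments per 1 M. On the FPKM scale the call was lost without CPEB3+/- replicate B, D or E or CPEB3-/- replicate A or B, at 0.62 to 0.77 and adjusted p of 0.0515 to 0.0714. In fragments per 1 M it was lost without CPEB3-/- replicate B alone (0.87, adjusted p = 0.0524). It was also lost with the GC trend removed (0.54, adjusted p = 0.113), with a pseudocount of 1 (0.20, adjusted p = 0.0322) and with no filter on low values (0.78, adjusted p = 0.0535). The genotype effects of the 2 stages differed by 0.24 (95% interval -0.29 to 0.77).

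Pabpc4, a further cytoplasmic form, known from activated T cells and erythroid cells, did not pass the test. It was listed at 0.656 ± 0.181 and 0.662 ± 0.0529 FPKM in CPEB3+/- and CPEB3-/- MII oocytes (log2 fold change -0.06, interval -0.38 to 0.27). In 2cell embryos it had 0.236, 0.354, 0.555, 0.510 and 0.523 FPKM in CPEB3+/- and 0.767, 0.823, 0.499 and 0.518 FPKM in CPEB3-/-. The groups overlapped, with CPEB3-/- replicates C and D inside the range of CPEB3+/- (log2 fold change 0.43, interval -0.11 to 0.97).

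**Figure D3:**
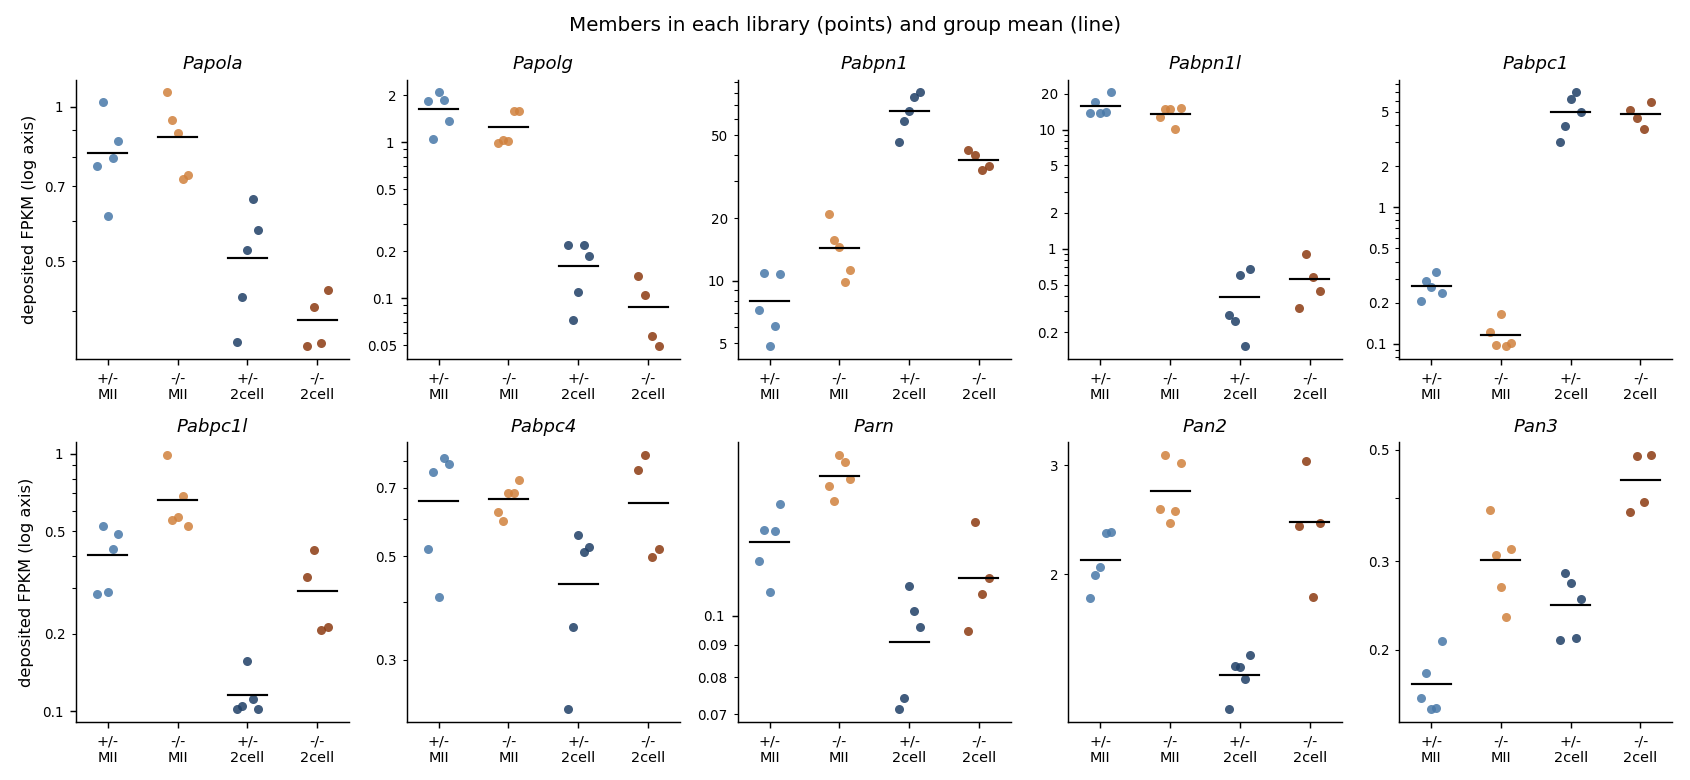
Deposited FPKM (log axis, a range of its own in each panel) of the 10 members in every library, as points for CPEB3+/- and CPEB3-/- MII oocytes (n = 5 each) and 2cell embryos (n = 5 and 4), with the group mean as a line. Pabpc1 and Parn in MII oocytes, Pabpn1 in 2cell embryos, and Pabpc1l, Pan2 and Pan3 in both stages have genotypes that do not overlap.

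The ratio between the 2 forms of a binding protein was taken per transcript length in each library. Pabpc1l to Pabpc1 was 2.96, 3.91, 2.41, 2.72 and 4.44 in CPEB3+/- and 17.3, 12.1, 7.41, 15.2 and 11.1 in CPEB3-/- MII oocytes. All CPEB3-/- libraries lay above all CPEB3+/- ones (log2 difference 1.92, two-sided exact permutation test, p = 0.00794, Benjamini-Hochberg adjusted over 4 such tests 0.0106). In 2cell embryos it was 0.0726, 0.0573, 0.0545, 0.0346 and 0.0443 in CPEB3+/- and 0.140, 0.201, 0.119 and 0.0772 in CPEB3-/-. The genotypes again did not overlap (log2 difference 1.31, exact permutation p = 0.00794, adjusted 0.0106), and the ratio holds the differences of its 2 genes given above.

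Pabpn1l to Pabpn1 was 1.70, 1.37, 2.52, 2.05 and 1.70 in CPEB3+/- MII oocytes and 0.540, 0.838, 0.910, 0.916 and 1.19 in CPEB3-/- MII oocytes. It was lower in every CPEB3-/- library (log2 difference -1.10, exact permutation p = 0.00794, adjusted 0.0106), and 4 of these 5 lay below 1, where Pabpn1 exceeds Pabpn1l. In 2cell embryos it was 0.00178 to 0.00814 (median 0.00537) in CPEB3+/- and 0.00678 to 0.0201 (median 0.0132) in CPEB3-/-, with overlap (log2 difference 1.40, exact permutation p = 0.0476, adjusted 0.0476). It rests on the 10 to 54 fragments of Pabpn1l per library, and without 1 library p was 0.0571 to 0.125 in 8 of 9 cases.

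**Figure D4:**
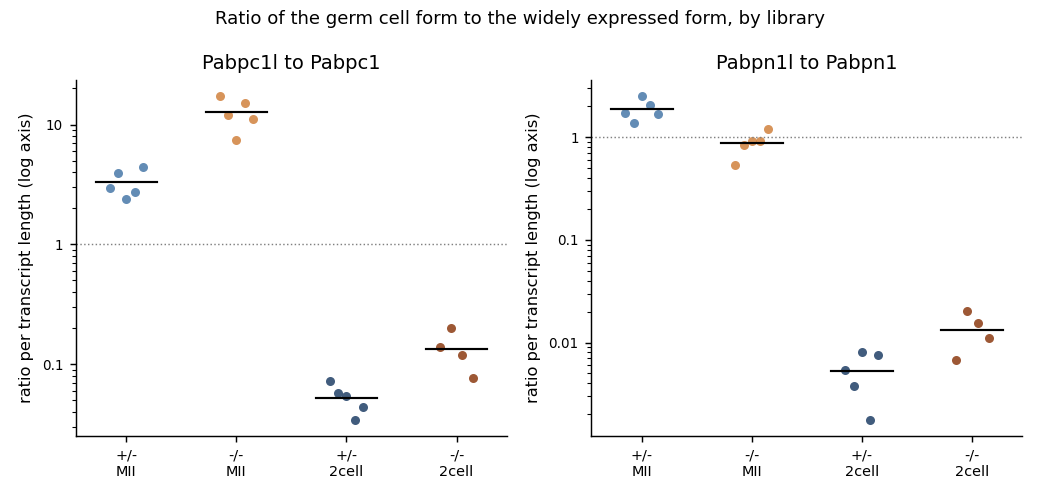
Ratio of Pabpc1l to Pabpc1 and of Pabpn1l to Pabpn1 per transcript length (log axis, the dotted line at 1) in each library, with the group mean as a line. The first ratio is above 1 in every MII and below 1 in every 2cell library, and in both stages the CPEB3-/- libraries of the first ratio lie above the CPEB3+/- ones.

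Parn, a cap-stimulated deadenylase, was listed in MII oocytes at 0.131 ± 0.0157 FPKM where CPEB3+/- and at 0.166 ± 0.0110 FPKM where CPEB3-/-. The genotypes did not overlap as deposited, at 321 to 381 and 386 to 490 fragments. After scaling, the log2 fold change was 0.13 (interval -0.07 to 0.34) and 0.21 in fragments per 1 M, and it did not pass the test on either scale. In 2cell embryos the log2 fold change was 0.12 (interval -0.23 to 0.48).

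Pan2, the catalytic subunit of the PAN2-PAN3 deadenylase, which trims long tails first, was listed at 1.83, 2.00, 2.05, 2.33 and 2.34 FPKM in CPEB3+/- and at 2.55, 3.11, 2.42, 2.53 and 3.02 FPKM in CPEB3-/- MII oocytes. Every CPEB3-/- library was the higher, but by little, and the log2 fold change of 0.24 (interval -0.02 to 0.49) did not pass the test. In 2cell embryos Pan2 had 1.21, 1.43, 1.42, 1.35 and 1.48 FPKM in CPEB3+/- and 2.40, 3.04, 1.84 and 2.42 FPKM in CPEB3-/-. These groups were clearly apart, with a mean 1.76-fold higher in CPEB3-/- (log2 fold change 0.67, SE 0.161, adjusted p = 0.0186). Without CPEB3-/- replicate B the log2 fold change of Pan2 was 0.54 and with the GC trend removed 0.57, both below 1.5-fold, and with a pseudocount of 1 it was 0.46, so that the call was lost.

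Pan3, the regulatory subunit, which binds the tail-bound PABPC1 and recruits PAN2, was listed at 0.160, 0.180, 0.152, 0.153 and 0.208 FPKM in CPEB3+/- and at 0.380, 0.309, 0.266, 0.233 and 0.318 FPKM in CPEB3-/- MII oocytes. In 2cell embryos it had 0.209, 0.284, 0.272, 0.211 and 0.253 FPKM in CPEB3+/- and 0.375, 0.486, 0.394 and 0.488 FPKM in CPEB3-/-. The genotypes did not overlap in either stage, and the means were 1.76-fold and 1.77-fold higher in CPEB3-/-.

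The adjusted p of Pan3 was under 0.05 in both stages, while its log2 fold changes of 0.48 (SE 0.113, adjusted p = 0.0163) in MII oocytes and 0.56 (SE 0.163, adjusted p = 0.0372) in 2cell embryos stayed under 1.5-fold. With 0.1 FPKM worth 231.7 fragments of this gene, the fragments per 1 M gave 0.66 (adjusted p = 0.00229) and 0.73 (adjusted p = 0.00498), and Pan3 was called in both. On the FPKM scale it was also called in 2cell embryos without CPEB3+/- replicate B or CPEB3-/- replicate A, at 0.61 to 0.63, as deposited (0.63), with sum scaling (0.86) and with the GC trend removed (0.63), and in MII oocytes with sum scaling (0.61). Its 2 genotype effects differed by 0.04 (interval -0.31 to 0.40).

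Between the stages, 8 of 10 members were called in CPEB3+/- (2 higher and 6 lower in 2cell embryos) and 6 of 10 in CPEB3-/- (2 higher and 4 lower). Of 15786 genes 66.3% were called in CPEB3+/- (39.1% higher and 27.1% lower in 2cell embryos) and 65.1% in CPEB3-/- (37.8% higher and 27.2% lower). The median log2 fold change over all genes was 0.25 in CPEB3+/- and turned to -0.17 with each library scaled to its sum and to -0.24 with quantile normalization, which took the share of higher calls from 59.0% to 45.6% and 41.4% (in CPEB3-/- from 58.1% to 48.8% and 41.5%), and Pan3 was the one member whose direction turned with the scaling. The members' median was -0.69 in CPEB3+/- and -0.37 in CPEB3-/-.

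Pabpc1 and Pabpn1 rose. The mean of Pabpc1 was 18.9-fold higher in 2cell embryos in CPEB3+/- (log2 fold change 3.62, SE 0.190, adjusted p = 4.77e-12) and 41.3-fold higher in CPEB3-/- (4.33, SE 0.201, adjusted p = 1.08e-12). Pabpn1 rose 8.24-fold in CPEB3+/- (log2 fold change 2.90, adjusted p = 3.81e-10) but 2.64-fold in CPEB3-/- (1.26, adjusted p = 4.66e-05), the difference that the interaction test above gives.

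Papolg and both germ cell forms fell. Pabpn1l was 40.1-fold lower in 2cell embryos in CPEB3+/- (log2 fold change -5.28, adjusted p = 3.62e-12) and 23.9-fold lower in CPEB3-/- (-4.56, adjusted p = 8.66e-11). Papolg was 10.1-fold lower in CPEB3+/- (-2.89, adjusted p = 4.65e-09) and 14.3-fold lower in CPEB3-/- (-2.92, adjusted p = 1.01e-08). Pabpc1l was 3.49-fold and 2.26-fold lower (-1.32 and -1.09, adjusted p = 1.55e-06 and 3.58e-05). Papola fell by 0.75 on the log2 scale in CPEB3+/- and by 1.14 in CPEB3-/-, although the call in CPEB3+/- was lost with the GC trend removed (-0.51).

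Pan2 fell by 0.74 in CPEB3+/- and was called there. In CPEB3-/- its log2 fold change of -0.34 (adjusted p = 0.0349) stayed under 1.5-fold but was -0.73 and called with sum scaling, and the difference between the genotypes in this change was 0.40 (adjusted p = 0.222). Pabpc4 was called in CPEB3+/- at -0.65 and not in CPEB3-/- at -0.19 (-0.64 and called with quantile normalization), where the interaction was 0.45 (adjusted p = 0.365). Without CPEB3+/- MII replicate D or 2cell replicate A the call of Pabpc4 was lost, at -0.49 to -0.58. Parn was at -0.37 and -0.40, under 1.5-fold, and at -0.75 and -0.77 in fragments per 1 M, where it was called in both genotypes, as it was with sum and quantile scaling. Pan3 was at 0.24 and 0.29, was not called in either genotype, and turned negative under the sum and quantile scalings.

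Other genes that act on tails were taken from 5 lists. Their counts stand against 12.8% of all tested genes called in MII oocytes and 18.3% in 2cell embryos. In fragments per 1 M these shares were 17.7% and 21.4%, and with the GC trend removed 11.5% and 13.4%. Of 12 other poly(A) and uridyl polymerases, 8 were tested in MII oocytes and 0 were called by limma (1 at an unadjusted p under 0.05, 1 called in fragments per 1 M), and in 2cell embryos 2 of 10 were called, 1 in each direction. The split in embryos was 1 higher and 3 lower in fragments per 1 M, where 12 were tested, and 1 higher and 0 lower with the GC trend removed. Tent5b, a cytoplasmic poly(A) polymerase of the TENT5 family, rose from between 1.42 and 1.87 FPKM in CPEB3+/- to between 6.04 and 8.95 FPKM in CPEB3-/- embryos (log2 fold change 2.03, adjusted p = 0.000697), the largest change in these lists. Mtpap, the mitochondrial poly(A) polymerase, fell by 0.79 on the log2 scale (adjusted p = 0.0463), from between 1.54 and 3.01 FPKM to between 0.884 and 1.42 FPKM, and its call was lost with the GC trend removed.

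Among 18 cleavage and polyadenylation factors, 3 of 16 tested were called in MII oocytes (1 higher, 2 lower) and 2 of 17 in 2cell embryos (both lower). The directions depended on the setting: with the GC trend removed 3 were higher and 2 lower in MII oocytes and 2 higher and 1 lower in 2cell embryos, and in fragments per 1 M 1 was higher and 3 were lower in 2cell embryos. Cstf2t, a testis-enriched paralog of the subunit that binds the pre-mRNA downstream of the cleavage site, fell by 1.25 in MII oocytes (adjusted p = 0.00436), from between 0.859 and 1.36 FPKM to between 0.263 and 0.596 FPKM. Clp1, an RNA kinase of the cleavage complex, rose in MII oocytes by 1.07 (adjusted p = 0.00573) and fell in 2cell embryos by 0.73 (adjusted p = 0.0275), there with overlap and with the call lost once the GC trend was removed. Wdr33, the subunit that contacts the AATAAA hexamer, fell in both stages, by 0.61 in MII oocytes (adjusted p = 0.0344) and by 0.86 in 2cell embryos (adjusted p = 0.00795).

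Of 12 partners of PABPC1, 1 of 12 tested was called in MII oocytes and 2 of the 11 tested in embryos, all lower in CPEB3-/-. The call in MII oocytes was lost with the GC trend removed, and in fragments per 1 M 5 of 12 were called in embryos, 2 higher (Eif4b at 0.61 and Eif4g3 at 0.87) and 3 lower. Eif4e, which binds the cap and is joined to PABPC1 by eIF4G, fell by 1.07 in 2cell embryos (adjusted p = 0.00206), from 13.5 ± 2.05 FPKM (SD, 5 libraries) to 6.79 ± 0.936 FPKM (SD, 4 libraries), without overlap. Paip2, an inhibitor that displaces PABPC1 from the tail, fell by 0.76 (adjusted p = 0.0124), and this call was lost with the GC trend removed. Of 8 other poly(A)-binding proteins, 3 were tested in MII oocytes and 4 in 2cell embryos, and 0 were called by limma in either stage (1 and 2 at an unadjusted p under 0.05, 0 and 1 called in fragments per 1 M). Of these, Larp4b was higher in CPEB3-/- MII oocytes without overlap (adjusted p = 0.00745 by limma), but its log2 fold change of 0.50 stayed under 1.5-fold. Of 5 other deadenylases outside CCR4-NOT, 0 of 4 were called by limma in MII oocytes (2 at an unadjusted p under 0.05, 0 in fragments per 1 M) and 1 of 5 in 2cell embryos, lower, with genotypes that overlapped. With the GC trend removed 1 of these deadenylases was called in MII oocytes (Pde12, higher at 0.71), and in fragments per 1 M 1 more was called in embryos (Angel1, higher at 0.76). The medians of the 5 lists ranged from -0.02 to 0.12 in MII oocytes and from -0.46 to 0.22 in 2cell embryos.

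**Figure D5:**
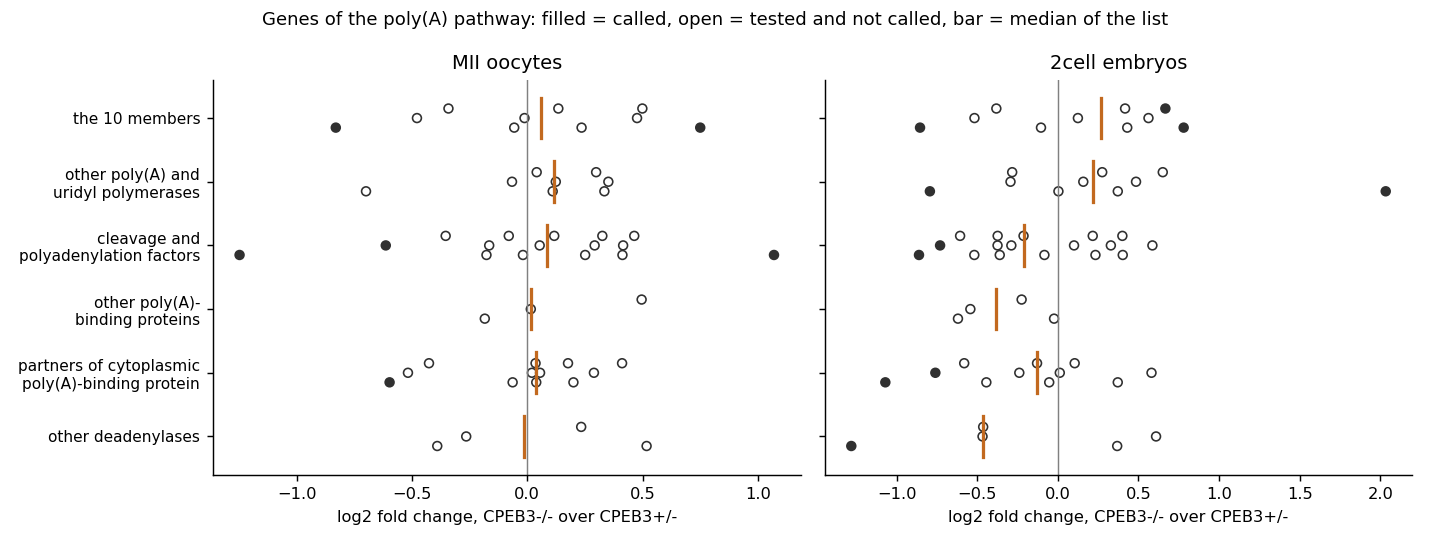
Log2 fold change, CPEB3-/- over CPEB3+/-, of the 10 members and of the tested genes of 5 other lists of the poly(A) pathway in MII oocytes and 2cell embryos, with called genes filled, genes not called open and the median of each list as a bar. Tent5b at 2.03 in 2cell embryos lies farthest from 0.

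For the 4 members called between the genotypes, the genes with the most similar pattern over the 19 libraries, after the mean of each stage was removed, were sought among 3314 genes with at least 1 FPKM in both stages. For Pabpn1 these were Ttc1 (Pearson r = 0.965) and Tbcb (0.964), for Pabpc1l Natd1 (0.909) and Maea (0.877), for Pan2 Sin3a (0.876) and Nat8f2 (0.857) and for Pabpc1 Cenpw (0.858) and P4hb (0.853). The points share library and depth. The mean of each genotype was not removed, so r also holds the genotype difference for which these members were picked. It is given as a description.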

How the data were processed

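The RNA of MII oocytes and 2cell embryos was sequenced in 19 libraries with an oligo-dT primed SMART-seq v4 kit. Per the labels, the authors trimmed reads with Trim Galore 0.4.1 and mapped them to GRCm38 with HISAT2 2.0.5, and their methods name SeqMonk for the values. The deposited table is named as raw counts but holds FPKM. With the gene's length from start to stop, introns included, a median of 87.2% (range 84.6 to 90.4) of the low values of 1509 genes with 1 transcript and long introns lay within 0.05 of a whole fragment, with exon length 12.5%, where chance gives 10.0%. Yet fragments were counted in exons: of 53 pairs of a gene nested in an intron of another, the host held at least as many fragments in 4. The authors' FPKM were therefore multiplied by that length over the longest coding transcript (GENCODE vM21) to compare genes. There were 0 columns of values not used.

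Genes at 0.1 FPKM or more in 5 MII, 4 2cell or 4 of all 19 libraries were kept, scaling factors came from trimmed mean log ratios (30% of ratios and 5% of levels trimmed), and values were fitted as log2(FPKM + 0.1) with limma 3.58.1 (R 4.3.3) with a variance trend, group being the only term and p adjusted over all genes. Stage and interaction contrasts came from 1 fit of 19 libraries. This scale understates the change of low genes. For a single value the test was a two-sided exact permutation (252 regroupings of MII and 126 of 2cell libraries). Depths of 17.1 to 23.4 M fragments were estimated, so fragment numbers are approximate and cover counting error only. Fragments per 1 M, FPKM times gene length, with at least 0.5 and 0.5 added, were chosen after seeing the data. The members and lists were chosen with earlier results of these data known. Named are all 10 members and, of the lists, called genes whose genotypes do not overlap, at most 3 per list. Eif4b, Eif4g3, Larp4b, Pde12, Angel1 and the marker genes fall outside this rule and were named after their values were seen. Alternatives were the values as deposited, sum and quantile scaling, no filter or 1 FPKM, a pseudocount of 1, a loess trend on GC content (span 0.5) removed, the replicate letter as a block, 1 fit for all libraries, no fold threshold and each library left out. Libraries apart from their group were sought with Dixon's test. Figures were drawn with matplotlib 3.10.9, and permutation tests run with scipy 1.17.1 in Python 3.11.15 (pandas 2.3.3, numpy 2.4.6).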

Additional observations from a re-analysis of the deposited data

Results flagged for a closer look

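The genotype difference of Pabpn1 differed between the stages: it was 0.75 in MII oocytes and -0.85 in 2cell embryos, a difference of -1.64 on the log2 scale (adjusted p = 0.00291, limma interaction). It was called in the same direction without any 1 of the 19 libraries and under each of the 10 other settings tried.

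Pabpc1l was listed at 0.156 FPKM in CPEB3+/- 2cell replicate C, while the other 4 libraries of the group had 0.102 to 0.111 FPKM. The gap took 0.828 of the group's range, above Dixon's critical value of 0.71. Of 48 groups examined (10 members and 2 ratios in 4 groups) this was the 1 library apart, and chance alone flags about 1 group in 20.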

How the results depend on the processing

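The counts of members called between the genotypes depended on the settings. In MII oocytes 2 were called, 4 with each library scaled to its sum, 3 in fragments per 1 M and with no fold threshold, 6 by the exact permutation test on the deposited values without adjustment, and 1 with no filter, a filter of 1 FPKM (4 members tested), a pseudocount of 1, the GC trend removed, the GC trend removed with the replicate block, and the replicate block alone, and 1 to 2 with 1 library left out. Over all genes, calls went from 1342 of 10515 to 1589 with sum scaling and 2221 with no fold threshold. In fragments per 1 M they were 2256 of 12717. They were 1033 of 23046 with no filter and 769 of 4435 with a filter of 1 FPKM. A pseudocount of 1 gave 487 and removing the GC trend 1204 of 10443. The replicate block gave 798, and 925 with the GC trend removed. For the permutation test the share over all genes was not computed. In 2cell embryos 3 were called, 4 as deposited, in fragments per 1 M and with no fold threshold, 2 with quantile normalization, no filter, a filter of 1 FPKM (3 members tested) and the GC trend removed, 1 with a pseudocount of 1, and 1 to 3 with 1 library left out. Calls over all genes went from 2570 of 14051 to 2509 as deposited, 2852 with no fold threshold and 2472 with quantile normalization. In fragments per 1 M they were 3533 of 16500. They were 2019 of 25748 with no filter and 1614 of 5629 with a filter of 1 FPKM. A pseudocount of 1 gave 1204 and removing the GC trend 1869 of 13933. With the replicate block, with or without the GC trend, 0 were called by limma in 2cell embryos (4 members at an unadjusted p under 0.05 with the block alone and 3 with the GC trend removed as well), while calls over all genes went from 2570 to 400 and to 0. The letters do not pair the libraries: deviations of libraries with the same letter correlated at -0.23 to 0.15, and at most 1 library per pair of groups correlated best with its own letter. Between the stages, 8 members were called in CPEB3+/-, 5 with a filter of 1 FPKM, which left 5 members to test, and 4 with a pseudocount of 1. Over all genes these calls were 10459 of 15786, 5252 of 6845 and 5284 of 15786. With a pseudocount of 1 the stage calls of Pabpc1l, Papola, Pan2 and Pabpc4 were lost in CPEB3+/-, and those of Pabpc1l and Papola in CPEB3-/-. Those of Pan2 and Pabpc4 were also lost in the values as deposited. The interaction called 1 member, and 2 with sum scaling, with quantile normalization and in fragments per 1 M. Over all genes it called, in that order, 1281, 1218 and 1295 of 15786 and 1433 of 17769.

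Differences near 0 changed sign. In MII oocytes Papola (-0.01) became 0.10 as deposited, 0.17 with sum scaling, 0.14 with the GC trend removed (with and without the block) and -0.062 to 0.042 with 1 library left out, and Pabpc4 (-0.06) became 0.046 as deposited, 0.11 with sum scaling and -0.16 to 0.014 with 1 left out. In 2cell embryos Pabpc1 (-0.10) became 0.27 with sum scaling, 0.019 with quantile normalization, 0.047 with the GC trend removed, 0.056 with the block added and -0.25 to 0.022 with 1 left out. Between the stages Pan3 became -0.17 and -0.35 in CPEB3+/- and -0.023 and -0.25 in CPEB3-/- with sum and quantile scaling. In the interaction, Papolg (-0.04) became 0.015 with sum scaling, 0.21 with a pseudocount of 1, 0.11 and 0.13 with the GC trend removed without and with the block, and -0.18 to 0.13 with 1 left out. Parn (-0.04) became 0.0028 with sum scaling, 0.0051 with the GC trend and block, and -0.091 to 0.012 with 1 left out, Pabpc1l became -0.029 with a pseudocount of 1, and Pan3 was -0.0074 to 0.10 with 1 left out. The ratio of Pabpn1l to Pabpn1 in 2cell embryos had log2 differences of 1.05 to 1.69 with 1 library left out. The cause was not tested. Pabpc1 in MII oocytes and Papolg, Pabpc1l and Pabpn1l in 2cell embryos rested on 195 fragments or fewer in every library, and the effect of depth on them was not tested.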
